A study of Mus musculus with 4 samples.

Results

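Adipokines are proteins that fat tissue releases into the blood or to its neighbours, and the genes of 9 of them (Lep, Adipoq, Retn, Cfd, Rbp4, Nampt, Rarres2, Apln and Nrg4) were examined in mouse epididymal adipose tissue. The members were found by gene symbol, 9 of the 24421 genes in the deposited expression matrices, and each of the 9 matched 1 gene. RNA-seq was performed on 4 libraries, 2 from mice kept on high-fat diet (Ctrl) and 2 from weight-cycled mice (WC1). All mice were WT males of strain C57BL/6J, and all were 24 weeks old with 14 weeks of high-fat feeding at the end. Ctrl mice began high-fat diet at 10 weeks of age and stayed on it for 14 weeks. WC1 mice began it at 8 weeks of age, ate it for 8 weeks, lost weight on standard diet for 2 weeks and returned to high-fat diet for 6 weeks. The comparison asks how the adipokine genes differ between obese mice with and without a transient weight loss. Because all mice were on high-fat diet at sampling, no lean reference stands beside these values, and the labels do not say whether a library came from 1 mouse or a pool. The p-values measure only the spread between these libraries, which may be technical.

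Adipocytes make most of the leptin and adiponectin in the body. Leptin signals the size of the fat stores to the brain and rises with fat mass, whereas circulating adiponectin, which favours insulin sensitivity, is usually low in obesity. Resistin, adipsin and RBP4 are further products of fat cells, linked in mice to glucose metabolism, complement activation and vitamin A transport. NAMPT, chemerin (from Rarres2), apelin and neuregulin 4 are also released by fat but are less restricted to it.

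The reads recovered from the deposited matrix came to between 61465029 and 90965297 per library, so that 3 reads corresponded to between 0.0345 and 0.0492 CPM (reads relative to the authors' scaled library size). The smallest number of reads behind any adipokine value was 470, for Apln. The labelled tissue was checked with marker genes. All 20 adipocyte markers were detected and passed the filter, and of 8 epididymis markers 6 were at 0 in every library, with a summed level of at most 3.16 CPM. Other cell types moved with the groups. Summed over 20 adipocyte markers the level was 27528 and 28384 CPM in Ctrl and 36449 and 41151 CPM in WC1, with 15 markers higher and 0 lower in WC1 by limma. For 15 macrophage markers the sums were 14618 and 13448 CPM in Ctrl and 8816 and 6185 CPM in WC1, with 7 markers lower, and for 10 endothelial markers they were 565 and 630 CPM against 1087 and 1382 CPM, with 7 higher. Over all genes tested by limma, 10.2% were higher and 7.71% lower in WC1. No marker of these 3 lists was at 0 throughout. In whole tissue, fewer cells of a type and less RNA per cell cannot be told apart, and the part of the cell makeup in the results below was not tested beyond the values relative to adipocyte markers.

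To show the start regions of the genes that the main contrasts turn on, the 250 bases before the RefSeq start site are printed for leptin and adiponectin, which were higher in WC1, and for Nampt, which was lower (RefSeq, GRCm38.p6, 5′ to 3′ on the gene's strand). Start sites here are those of RefSeq; the Nampt gene as given below, from GENCODE, begins further upstream with another transcript, so its window lies inside that span. The windows are chr6:29059971-29060220 on the plus strand for Lep, chr16:23146286-23146535 on the plus strand for Adipoq and chr12:32820085-32820334 on the plus strand for Nampt. Capitals mark matches to 4 motifs searched on both strands.
Lep: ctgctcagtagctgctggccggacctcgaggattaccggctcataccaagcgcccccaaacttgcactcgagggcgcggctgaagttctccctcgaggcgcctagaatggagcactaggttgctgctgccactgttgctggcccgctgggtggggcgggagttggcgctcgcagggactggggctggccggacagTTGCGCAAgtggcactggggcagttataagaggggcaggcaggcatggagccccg
Adipoq: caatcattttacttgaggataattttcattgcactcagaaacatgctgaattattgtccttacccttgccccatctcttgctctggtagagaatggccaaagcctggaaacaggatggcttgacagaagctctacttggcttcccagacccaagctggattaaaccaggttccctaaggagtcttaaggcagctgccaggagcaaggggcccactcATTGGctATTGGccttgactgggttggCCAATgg
Nampt: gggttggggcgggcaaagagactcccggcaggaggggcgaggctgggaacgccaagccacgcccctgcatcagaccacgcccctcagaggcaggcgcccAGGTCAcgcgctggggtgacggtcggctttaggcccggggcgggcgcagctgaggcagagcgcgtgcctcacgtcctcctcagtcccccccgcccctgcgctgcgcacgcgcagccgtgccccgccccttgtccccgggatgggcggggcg
The search was for the TATA box, spelled TATAAA. It was also for the CCAAT box, and for AGGTCA, a core element of nuclear receptor sites. The last motif, TTGCNNAA, is bound by C/EBP factors. The Lep window held 1 TTGCNNAA match, starting 55 bases before the start site and reading the same on both strands, a motif present in 9.56% of 32851 mouse promoter windows of this length. The Adipoq window held 3 CCAAT matches, starting 34, 27 and 7 bases before the start site, and 33.9% of windows held at least 1. The Nampt window held 1 AGGTCA match 151 bases before the start site, a motif found in 14.0% of windows and also 2 times in the Nrg4 window. The Nampt window was the richest in G and C of the adipokine windows, at 75.6%, with 96.4% of mouse windows lower and a median of 52.4%. The Lep and Adipoq windows had 65.6% and 48.8%. Of the 9 members, 8 had a window, and no motif was shared by Lep, Adipoq and Nampt.

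The 9 genes were first placed in order of abundance, in TPM, which corrects for transcript length. In Ctrl the order of the means was Adipoq (1103 TPM), Lep (928), Rarres2 (518), Retn (157), Rbp4 (155), Cfd (151), Nampt (54.5), Nrg4 (8.12) and Apln (4.74). The libraries overlapped between Adipoq and Lep and among Retn, Rbp4 and Cfd, while the other neighbours were apart. In WC1 the order was Adipoq (2880 TPM), Lep (2619), Rarres2 (848), Cfd (559), Retn (509), Rbp4 (406), Nampt (44.8), Nrg4 (18.1) and Apln (11.4). There, Adipoq overlapped with Lep, and Rarres2, Cfd and Retn each overlapped with the next in the order, so that the move of Cfd from the sixth to the fourth place lies within the spread. Among all genes, Adipoq ranked 150 and 111 by TPM in the Ctrl libraries and 40 and 23 in the WC1 libraries, and Lep ranked 192 and 143 compared to 44 and 26. The 9 genes together held 0.278% and 0.338% of the TPM in Ctrl and 0.633% and 0.947% in WC1. Lep and Adipoq accounted for 65.0% to 71.4% of that sum in every library.

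WC1 was then compared with Ctrl by limma on log2(CPM + 1) over 14106 genes. Of the 9 adipokine genes, 6 were higher (Lep, Adipoq, Cfd, Rbp4, Apln and Nrg4), 1 was lower (Nampt), and Retn and Rarres2 missed the threshold of 0.05 for the adjusted p. Over all genes tested, 17.9% were called, 10.2% as higher and 7.71% as lower. The median log2 fold change was 1.23 for the 9 genes compared to −0.02 for all genes. The 9 genes were chosen with earlier results of these data known, so their contrast with all genes is a description only. In CPM, all 9 had no overlap between the groups, 8 with WC1 above and Nampt with WC1 below, whereas 69.3% of all genes had no overlap, 32.7% with WC1 above and 36.6% with WC1 below. The fold changes below are those of the mean log2 values, and a fold on this scale understates changes of low genes.

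**Figure D1:**
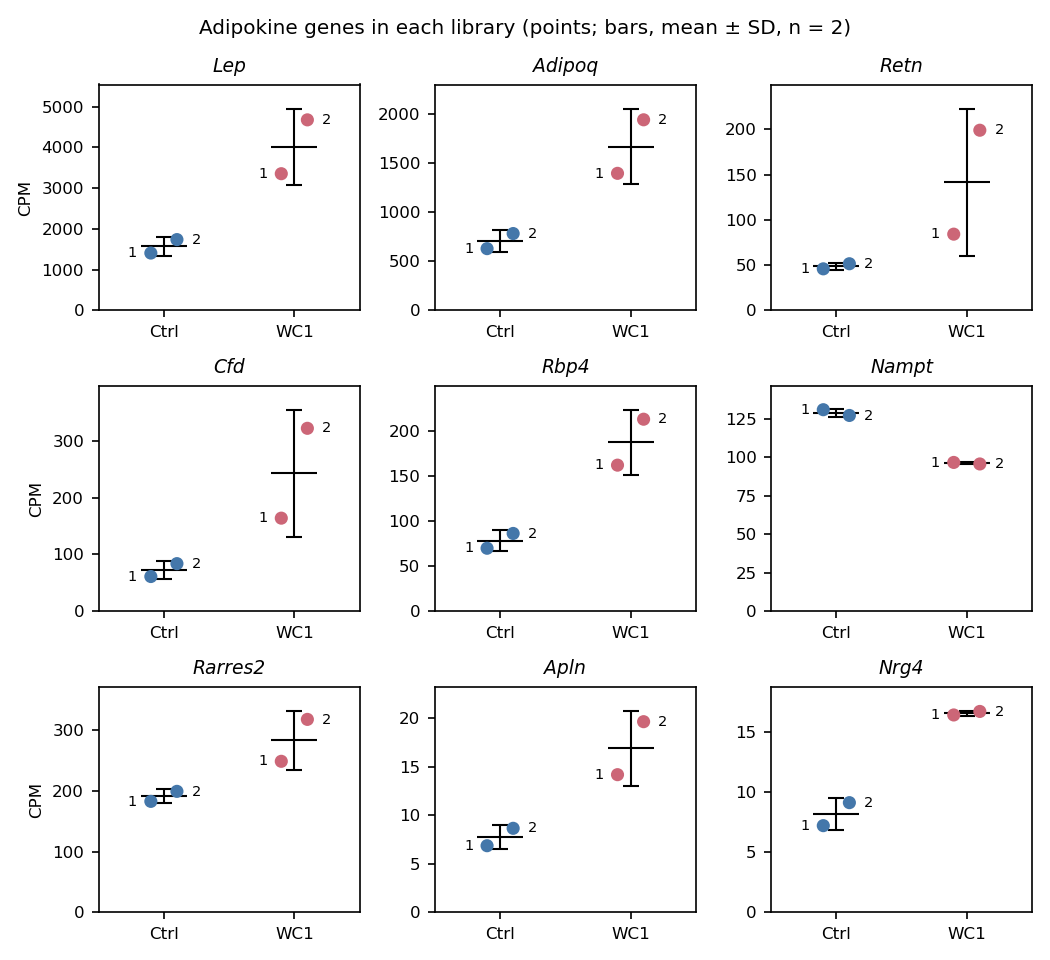
Level of the 9 adipokine genes in each library, in CPM on a linear axis from 0; points are libraries with their number, the long bar is the group mean and the error bar the SD of 2 libraries. In 8 panels both WC1 points lie above both Ctrl points, and in the Nampt panel both lie below; the wide WC1 bars of Retn and Cfd come from 84.2 against 199 CPM and 164 against 322 CPM.

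Leptin is the satiety hormone of adipocytes (Lep, ENSMUSG00000059201.12, chr6:29060220-29073877, plus strand). Its level was 1408 and 1739 CPM in the Ctrl libraries and 3357 and 4679 CPM in the WC1 libraries. The lower WC1 library was 1.93 times the higher Ctrl library, so the groups lay well apart, while the WC1 libraries differed from each other more than the Ctrl libraries did. Lep was 2.53-fold higher in WC1 (95% interval 1.66 to 3.87, log2 fold change 1.34 ± 0.24 SE, adjusted p = 0.028 by limma).

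Adiponectin is the abundant collagen-like hormone of fat cells (Adipoq, ENSMUSG00000022878.5, chr16:23146536-23158028, plus strand). The Ctrl libraries held 630 and 784 CPM and the WC1 libraries 1398 and 1944 CPM. The groups were apart, and Adipoq was 2.34-fold higher in WC1 (95% interval 1.61 to 3.41, adjusted p = 0.027 by limma). The balance of both hormones was examined as the ratio of Lep to Adipoq within each library, which does not depend on library scaling. In TPM it was 0.845 and 0.839 in Ctrl, compared to 0.908 and 0.910 in WC1. The ratio was thus close to constant within a group and slightly higher in WC1, with a log2 difference of 0.11 in CPM, or 1.08-fold. With 2 libraries a group the exact two-sided permutation test gave p = 0.333, the smallest it can give.

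Resistin is a cysteine-rich hormone made by mouse adipocytes (Retn, ENSMUSG00000012705.16, chr8:3655770-3660110, plus strand). Retn had 45.9 and 51.6 CPM in Ctrl, compared to 84.2 and 199 CPM in WC1. Both WC1 libraries were above Ctrl, but they differed from each other by 2.36-fold, the widest replicate gap among the 9 genes. The log2 fold change of 1.39 ± 0.40 SE (95% interval 0.37 to 2.42) did not pass (adjusted p = 0.071 by limma), and it was 0.78 without WC1 2 and 2.01 without WC1 1. In those fits the spread comes from the Ctrl pair alone, so the gap between the WC1 libraries is no longer part of the error. With every library in, DESeq2 called Retn (adjusted p = 0.038) and edgeR did not (0.062). A limma fit with a term for library number also called it (0.027), though equal numbers are not said to pair libraries.

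Adipsin, or complement factor D, is the serine protease that starts the alternative complement pathway by cutting factor B (Cfd, ENSMUSG00000061780.6, chr10:79890853-79892655, plus strand). Its level was 61.3 and 83.9 CPM in Ctrl and 164 and 322 CPM in WC1. The WC1 libraries stood apart from Ctrl and also 1.96-fold from each other. Cfd had the highest fold of the 9 genes, 3.17 (95% interval 1.72 to 5.85, adjusted p = 0.037 by limma), and that wide interval includes the folds of Lep, Adipoq, Retn, Rbp4, Apln and Nrg4.

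RBP4 carries retinol in the blood (Rbp4, ENSMUSG00000024990.13, chr19:38116629-38125281, minus strand). The level was 69.8 and 86.2 CPM in Ctrl, compared to 162 and 213 CPM in WC1, with no overlap. The gene was 2.37-fold higher in WC1 (95% interval 1.76 to 3.20, adjusted p = 0.019 by limma).

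NAMPT makes nicotinamide mononucleotide in the salvage of NAD and is secreted as visfatin (Nampt, ENSMUSG00000020572.8, chr12:32819545-32853349, plus strand). Its level was 131 and 127 CPM in Ctrl and 96.7 and 95.7 CPM in WC1. This was the one adipokine gene that fell, and its replicates lay closest together. The level in WC1 was 0.747 of that in Ctrl (95% interval 0.667 to 0.837, log2 fold change −0.42 ± 0.064 SE, adjusted p = 0.023 by limma). A noncoding gene in a Nampt intron on the same strand, Gdap10, had at most 0.377 CPM.

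Chemerin attracts immune cells through its receptor CMKLR1 and acts on adipocyte formation (Rarres2, ENSMUSG00000009281.6, chr6:48569696-48572789, minus strand). Rarres2 had 183 and 199 CPM in Ctrl and 249 and 317 CPM in WC1. The groups did not overlap, with a log2 fold change of 0.56 ± 0.14 SE (95% interval 0.21 to 0.91), but the adjusted p of 0.052 by limma was just above the threshold. The call depended on the setting. It was made in TPM (limma adjusted p = 0.048) and by DESeq2 (0.0019), but not by edgeR (0.054). A limma fit with a term for library number also made it (0.020), though equal numbers are not said to pair libraries. Rarres2 overlaps Lrrc61 on the opposite strand, which had 11.5 to 13.1 CPM in the 4 libraries. The library kit marks strand, but the sources used here do not say whether reads were counted by strand.

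Apelin is a vasoactive peptide of adipocytes and endothelial cells (Apln, ENSMUSG00000037010.7, chrX:48025146-48034853, minus strand). It was low, with 6.87 and 8.66 CPM in Ctrl and 14.2 and 19.7 CPM in WC1. The WC1 libraries lay above both Ctrl libraries, and Apln was 2.03-fold higher (95% interval 1.45 to 2.85, adjusted p = 0.031 by limma).

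Neuregulin 4 is an EGF-like ligand enriched in brown fat that signals to the liver (Nrg4, ENSMUSG00000032311.17, chr9:55220222-55326844, minus strand). Nrg4 had 7.19 and 9.10 CPM in Ctrl and 16.4 and 16.7 CPM in WC1. The WC1 libraries were nearly equal, and the gene was 1.93-fold higher (95% interval 1.53 to 2.43, adjusted p = 0.020 by limma). It overlaps Fbxo22 on the opposite strand, whose level of 56.5 and 54.9 CPM in Ctrl and 49.3 and 59.2 CPM in WC1 was above that of Nrg4 and overlapped between the groups. The brown adipocyte list was low, summing to 13.8 and 14.6 CPM in Ctrl and 19.0 and 16.8 CPM in WC1, with Zic1 at 0 in every library. Of its 5 genes tested, limma called 1 higher and 1 lower, compared to 10.2% and 7.71% of all genes. Their median log2 fold change was 0.48.

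**Figure D2:**
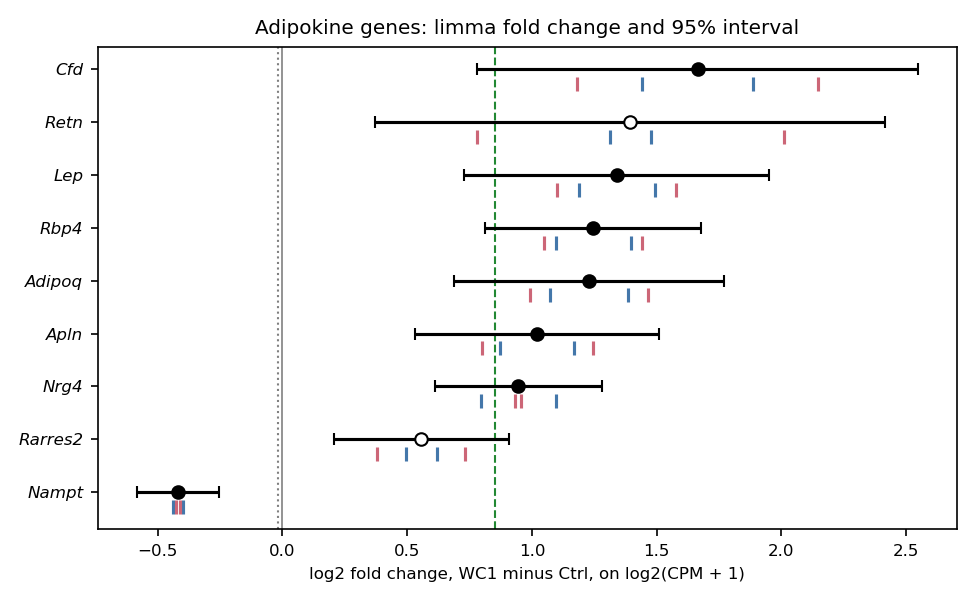
Log2 fold change (WC1 minus Ctrl, on log2(CPM + 1)) of each adipokine gene by limma with its 95% interval; filled points passed an adjusted p of 0.05, open points did not, and ticks below each point give the value without 1 Ctrl library (blue) or 1 WC1 library (red). The dotted line is the median of all genes (−0.02) and the dashed line that of the 20 adipocyte markers (0.85). All intervals lie on one side of 0, and every tick keeps the sign of its point.

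The number of calls changed with the libraries in the fit. With 1 library left in a group, the spread is estimated from the other group alone, and the lone library is assumed to vary like it. Without Ctrl 1 and without Ctrl 2, limma called 0 of the 9 genes, although 6 and 9 had an unadjusted p under 0.05, and 0.0425% and 0.0851% of all genes were called. Without WC1 1 or without WC1 2 all 9 were called, where 36.7% and 18.8% of all genes were. On the recovered reads edgeR called 7 and DESeq2 called 9, with 17.6% and 27.4% of all genes called. Without the filter on low values limma called 3 of the 9 genes and 7.28% of all genes. With libraries centred on adipocyte markers it also called 3, where 82.2% of all genes were called.

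Because adipocyte markers were also higher in WC1, each adipokine gene was set against the mean log2(CPM + 1) of the 20 adipocyte markers in the same library. That mean was 8.08 and 8.30 in Ctrl, compared to 8.87 and 9.13 in WC1, a difference of 0.81. Relative to it, Cfd was 0.85 higher in WC1 on the log2 scale (1.80-fold), Retn 0.58, Lep 0.53, Rbp4 0.43, Adipoq 0.41 and Apln 0.21. For these 6 genes both WC1 libraries stayed above both Ctrl libraries. Without WC1 2 the difference was 0.50 for Cfd, 0.09 for Retn and 0.12 for Apln, and without WC1 1 it was 1.07 for Retn. With a pseudocount of 5 the sign of Apln turned (−0.0029), as did that of Nrg4 (−0.060). Nrg4 differed by 0.13 with overlapping groups, by 0.012 without WC1 1 and by 0.25 without WC1 2. Rarres2 was below the markers, at −0.26, so its direction turned, and Nampt was at −1.23, both without overlap. Leptin and adiponectin thus differed by 1.44-fold and 1.33-fold against the markers, compared to 2.53-fold and 2.34-fold against all reads. The exact two-sided permutation p was 0.333 for each gene except Nrg4 (0.667), or 0.370 and 0.667 adjusted over the 10 exact tests including the ratio, and 0.333 is the smallest the design allows. Retn and Cfd differed most between the WC1 libraries here too.

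**Figure D3:**
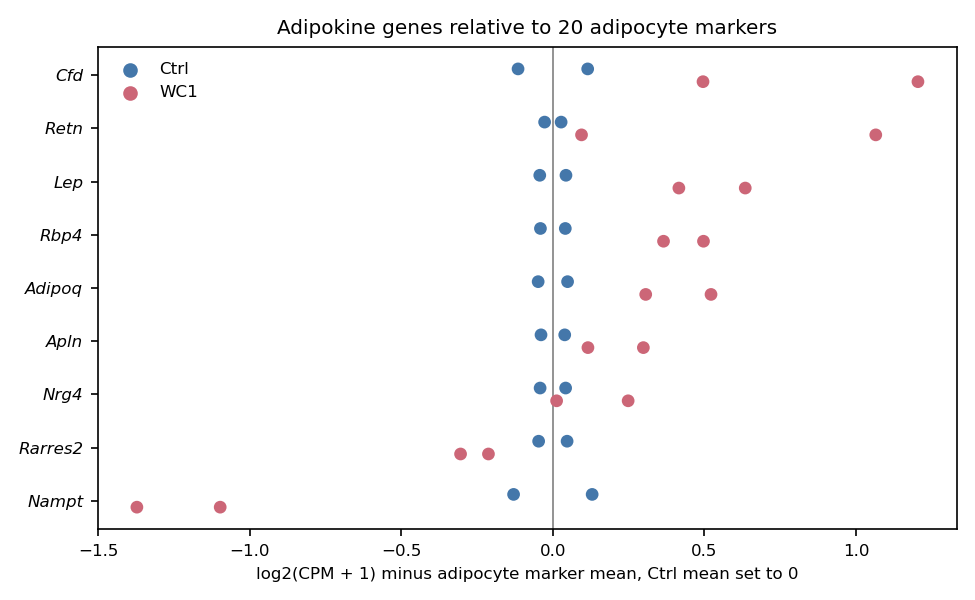
Log2(CPM + 1) of each adipokine gene minus the mean of 20 adipocyte markers in the same library, with the Ctrl mean of each gene set to 0; points are single libraries. Red WC1 points lie to the right of both blue Ctrl points for Cfd, Retn, Lep, Rbp4, Adipoq and Apln, overlap for Nrg4, and lie to the left for Rarres2 and Nampt.

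The adipokine genes also varied together between replicates. The library numbered 2 had the higher level of 8 of the 9 genes in Ctrl and of 8 of the 9 in WC1, with Nampt the exception in both. The same was seen for 17 of the 20 adipocyte markers in each group, compared to 51.2% and 45.2% of all genes. The median log2 gap between the replicates over the 9 genes was 0.30 in Ctrl and 0.44 in WC1.

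Receptors and partners of the adipokines were then read from the same fit, from lists written by axis. Of 60 genes tested, 9 were higher and 11 lower in WC1, with a median log2 fold change of −0.11, compared to −0.02 for all genes. A further 11 of the 71 listed genes were below the filter. Over all genes, 10.2% were higher and 7.71% lower, both smaller shares than in these lists. The lists were chosen with earlier results of these data known, so this too is a description only.

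The leptin axis had 3 lower and 0 higher of 7 genes tested. Ptpn1, the phosphatase that dampens leptin and insulin receptor signalling, fell from 195 and 195 CPM to 122 and 104 CPM (log2 fold change −0.78, adjusted p = 0.017 by limma). Socs3, a feedback inhibitor of the leptin receptor, fell from 28.4 and 36.4 CPM to 17.7 and 17.1 CPM (−0.85, adjusted p = 0.024 by limma). Leprotl1, related to the leptin receptor overlapping transcript, fell by 0.46 on the log2 scale (adjusted p = 0.032 by limma). It missed the threshold in TPM and with no filter (limma adjusted p of 0.054 and 0.053). The receptor Lepr itself was scarce, with 1.05 and 1.48 CPM in Ctrl and 1.74 and 3.51 CPM in WC1, and was not called (adjusted p = 0.16 by limma).

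In the adiponectin axis, 3 of 8 genes were higher and 1 was lower. Cdh13, the T-cadherin that binds adiponectin on vessel walls, rose from 11.8 and 14.1 CPM to 29.0 and 39.9 CPM (1.33 ± 0.18 SE, adjusted p = 0.019 by limma). Of the signalling receptors, Adipor2 was higher, at 270 and 277 CPM in Ctrl and 400 and 473 CPM in WC1 (0.67, adjusted p = 0.024), whereas Adipor1, at 208 and 205 CPM against 198 and 180 CPM, was not called (adjusted p = 0.30 by limma). Of the enzymes that assemble adiponectin in the endoplasmic reticulum, Gstk1 (DsbA-L) rose by 0.62 on the log2 scale and Ero1l fell by 0.29, with limma adjusted p of 0.046 and 0.047. Both missed the threshold after quantile normalization (0.055 and 0.0504) and with no filter, and Ero1l also in TPM (0.17).

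For resistin, Retnla (RELMα), a relative best known from alternatively activated macrophages and also made in fat, had 8.85 and 11.6 CPM in Ctrl and 107 and 214 CPM in WC1. It rose by 3.77 ± 0.34 SE on the log2 scale (adjusted p = 0.012 by limma), in libraries where the macrophage markers were lower. Retnlb was at 0 in every library, and Retnlg had at most 0.205 CPM. Of the proposed receptors, Tlr4 fell from 49.6 and 50.3 CPM to 40.0 and 35.1 CPM (−0.40, adjusted p = 0.041 by limma). That call was lost in TPM and with no filter (limma adjusted p of 0.088 and 0.062). Cap1, at 623 and 601 CPM in Ctrl and 509 and 388 CPM in WC1, was not called (adjusted p = 0.094 by limma).

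For adipsin, 10 complement genes were tested, and calls were found in both directions. Cfb, the factor B that adipsin cuts, had 332 and 303 CPM in Ctrl and 471 and 690 CPM in WC1 and rose by 0.85 on the log2 scale (adjusted p = 0.046 by limma). Cfp, or properdin, which stabilises the resulting enzyme, fell from 201 and 203 CPM to 106 and 107 CPM (−0.92, adjusted p = 0.0086 by limma). Hc, which encodes C5, was under 4 CPM throughout and lower in WC1 (−1.66, adjusted p = 0.017 by limma). Thus a protease of the pathway and its substrate were higher, while its stabiliser was lower.

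For RBP4, 2 of 10 retinol genes were higher. Rbp7, an intracellular retinol-binding protein of adipocytes and endothelium, rose from 14.9 and 15.1 CPM to 29.1 and 31.4 CPM (0.97, adjusted p = 0.011 by limma), and Aldh1a1, which makes retinoic acid, rose by 0.52 on the log2 scale (adjusted p = 0.048 by limma, 0.052 by edgeR). Stra6, the RBP4 receptor, had at most 6 reads in a library.

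Around NAMPT, 1 of 13 genes of NAD metabolism was higher and 1 was lower. Bst1 (CD157), a NAD-consuming surface enzyme of myeloid cells, fell from 67.3 and 58.9 CPM to 19.9 and 15.5 CPM (−1.79 ± 0.14 SE, adjusted p = 0.0095 by limma). Nnmt, which methylates nicotinamide and so withdraws the substrate of NAMPT, was 76.1 and 79.2 CPM in Ctrl and 123 and 175 CPM in WC1 (0.91, adjusted p = 0.031 by limma). Nampt and Nnmt, both of which use nicotinamide, thus changed in opposite directions.

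The receptors of chemerin, apelin and neuregulin 4 differed in level. Cmklr1 fell from 113 and 122 CPM to 95.3 and 95.7 CPM (−0.29, adjusted p = 0.048 by limma), a call that edgeR did not make (adjusted p = 0.069). Ccrl2, also listed as a chemerin receptor, had 15.3 and 14.3 CPM in Ctrl and 14.4 and 10.1 CPM in WC1 and overlapped between the groups. Gpr1, at 1.90 and 2.08 CPM against 2.69 and 3.07 CPM, was not called (adjusted p = 0.098 by limma). Aplnr, the apelin receptor of endothelial cells, rose from 27.8 and 27.1 CPM to 69.9 and 84.8 CPM (1.45 ± 0.11 SE, adjusted p = 0.0088 by limma), beside the higher endothelial markers described above. For apelin, ligand and receptor were therefore both higher. Of 4 neuregulin axis genes tested, limma called 0, with 1 at an unadjusted p under 0.05, and edgeR and DESeq2 called 0 and 1. Erbb2 had 6.90 and 6.75 CPM in Ctrl, compared to 8.96 and 10.7 CPM in WC1 (adjusted p = 0.058 by limma), Erbb3 was between 0.942 and 1.72 CPM, and Erbb4, the main receptor of neuregulin 4, had 0 reads in every library, which allows a level of up to 0.0492 CPM.

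**Figure D4:**
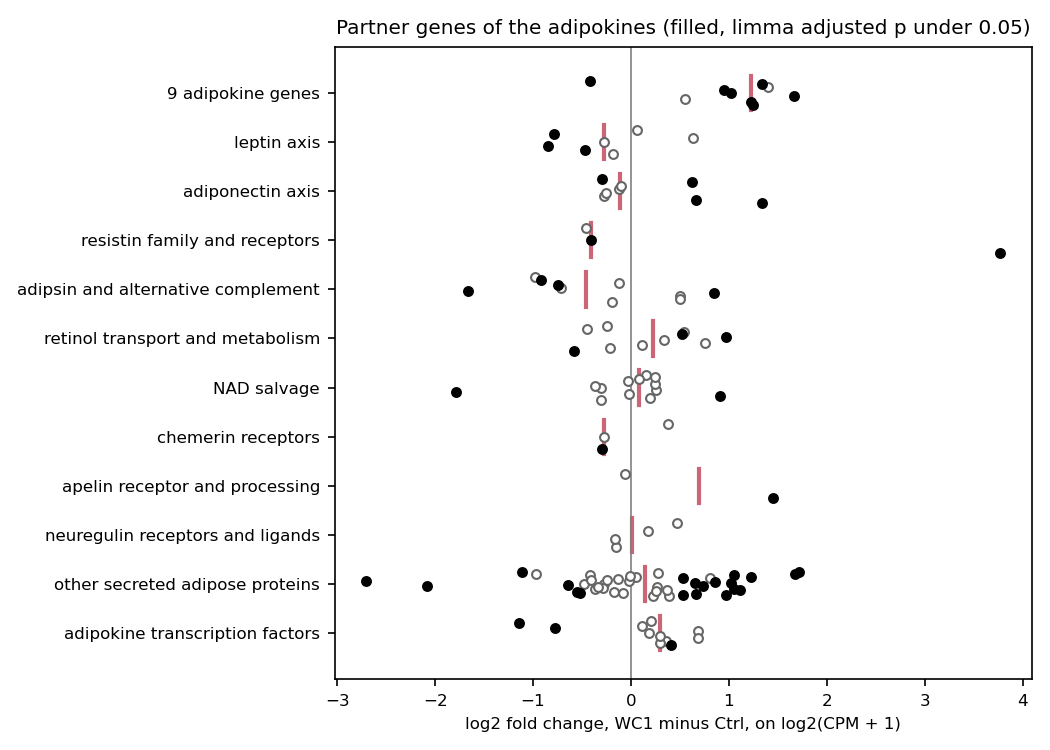
Log2 fold change (WC1 minus Ctrl, on log2(CPM + 1)) of the adipokine genes, in the top row, and of the tested genes in each partner list; points are genes, filled where the limma adjusted p was under 0.05, and red bars are list medians. The top row has its median at 1.23, while the other rows scatter on both sides of 0, with Retnla (resistin family) at 3.77 farthest to the right and Spp1 (other secreted proteins) at −2.70 farthest to the left.

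Of 11 transcription factors known to act on adipokine genes, 1 was higher and 2 were lower, compared to 10.2% and 7.71% of all genes. Their median log2 fold change was 0.29, and 9 of the 11 had a value above 0. Pparg, the master regulator of fat cell formation, rose from 67.2 and 67.8 CPM to 85.3 and 95.1 CPM (0.41, adjusted p = 0.033 by limma). Cebpb and Cebpd fell by 0.78 and 1.14 in log2 units (adjusted p of 0.014 and 0.013 by limma). Cebpa, the C/EBP factor of mature adipocytes, had 299 and 294 CPM in Ctrl and 321 and 352 CPM in WC1 and was not called (adjusted p = 0.18 by limma).

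Other proteins secreted by adipose tissue were listed for comparison. Of 42 tested, 14 were higher and 6 lower in WC1, with a median log2 fold change of 0.14. Over all genes, 10.2% were higher and 7.71% lower, with a median of −0.02. Those with the smallest p went both ways. Gdf15, a stress-induced hormone, fell from 44.8 and 38.0 CPM to 10.7 and 7.45 CPM (−2.09, adjusted p = 0.012 by limma), and Spp1 (osteopontin), largely a macrophage product in obese fat, fell from 557 and 428 CPM to 103 and 53.4 CPM (−2.70, adjusted p = 0.016 by limma). Inhbb, the activin B subunit, was higher by 0.86 and Sfrp5, a secreted Wnt inhibitor of adipocytes, by 1.71 in log2 units (adjusted p of 0.012 and 0.020 by limma).

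Finally, the genes whose pattern over the 4 libraries was nearest to each adipokine gene were searched among 9463 genes with a mean of at least 10 CPM, by the root mean square (RMS) difference of centred log2(CPM + 1). With 4 libraries this likeness is a description only. Nearest to Lep were Cdh13, Sox7 and Cdh5 (RMS 0.026 to 0.039), genes known from endothelium. Nearest to Adipoq were Lama5, Trp53i11 and Rbp4 (0.018 to 0.031), and nearest to Rbp4 were Glb1l2, Adipoq and Flt1 (0.016 to 0.031), so that Adipoq and Rbp4 named each other. Apln was nearest to Acvr1c, Plin1 and Tinagl1 (0.0086 to 0.019), the first and second of which are adipocyte markers. Nrg4 was nearest to Hr, Prr32 and Dusp10 (0.020 to 0.038), Rarres2 to Gbp7, Usp46 and Hfe (0.011 to 0.015) and Nampt to Ran, Hacd3 and Hsf2 (0.0066 to 0.011). Retn and Cfd had no close match. Their nearest genes, Lamb3, Apoc1 and Apcdd1 for Retn (0.15 to 0.19) and Dmrt2, Timp4 and Apcdd1 for Cfd (0.075 to 0.096), shared a high value in WC1 2.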

How the data were processed

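Poly(A) RNA of epididymal adipose tissue was made into directional libraries. The authors' processing notes name fastp, HISAT2, StringTie and build mm10; the sources used here do not give the annotation or the use of strand in counting. The authors deposited a gene matrix named CPM, a signal proportional to reads (each value was a whole multiple of 1 read within 0.01 read in 100% of cases, and column sums differed from plain CPM), and a matrix of TPM. Depth was recovered from the former.

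Genes with at least 0.5 CPM in 2 libraries were tested (14106, with 10315 removed) on log2(CPM + 1) with limma 3.58.1 in R 4.3.3 (two-sided, with an abundance trend), and p-values were adjusted by Benjamini-Hochberg over the whole table. The study's 0.5 CPM minimum was followed. The library of each group came from the sample titles. Single values were tested by exact permutation over 3 splits. The recovered reads were also tested with edgeR 4.0.16 and DESeq2 1.42.0. The scripts were tested on simulated data. Other settings were a pseudocount of 0.1 or 5, no filter, a mean of at least 5 CPM, TPM, median-of-ratios, quantile or adipocyte-marker scaling, a replicate block, and leaving out each library. Gene positions are from GENCODE M21 (GRCm38), the same assembly as mm10.

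The members and lists were chosen with earlier results of these data known. Named were the 9 genes, receptors, and from each list the called genes, or the 4 with the smallest p where more were called, or the gene with the smallest p where none was. Some genes that this rule names are not reported here. For each adipokine gene the 3 nearest patterns were named. Cebpa, Retnlb, Retnlg and the genes in the closing section were named after their values were seen. Mesothelial (9 genes in the matrix, sums of 73.1 to 197 CPM) and lymphocyte markers (10, 8.21 to 31.9 CPM) were at low sums. Skeletal muscle markers (8) were also low, at 10.6 and 13.6 CPM in Ctrl and 26.8 and 27.0 CPM in WC1, with 2 of 3 tested higher. Fibroblast markers (10) summed to 9418 and 9088 CPM in Ctrl and 8183 and 6412 CPM in WC1, with 5 lower. Mast cell markers (8) summed to 563 and 623 CPM in Ctrl and 84.5 and 66.6 CPM in WC1, with 7 lower. Over all genes tested, 10.2% were higher and 7.71% lower.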

Additional observations from a re-analysis of the deposited data

How the results depend on the processing

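In the 15 alternatives tried for each of the 9 adipokine genes, the direction of the log2 fold change was kept in 134 of 135 values and the side of the threshold as well in 101. The exception was Rarres2, at −0.26 when libraries were centred on adipocyte markers, a centring that moved the median of all genes by −0.81, whereas TPM moved it by 0.12. That centring called 3 adipokine genes (Retn, Cfd and Nampt), 53 axis genes (transcription factors included), and 89 genes higher and 11509 lower among all, a higher share of 0.767% compared to 57.0%. The higher share was 77.9% in TPM, where 552 genes were lower. With no filter 3 adipokine genes (Rbp4, Nampt and Nrg4), 13 axis genes and 7 other secreted protein genes were called, and 788 and 532 genes overall; the cause was not tested. Of the partner genes named, Leprotl1, Ero1l, Tlr4 and Cmklr1 were not called in TPM, and Leprotl1, Gstk1, Ero1l, Tlr4, Cfb, Aldh1a1, Nnmt, Cmklr1 and Pparg were not called with no filter. Cmklr1 and Aldh1a1 also lost their calls with edgeR, median-of-ratios scaling and quantile normalization, the last of which lost Gstk1 and Ero1l too. DESeq2 called 1736 genes lower. Leaving out single libraries gave 0 to 9 adipokine genes, 0 to 42 axis genes, 0 to 32 other secreted protein genes, 2 to 2424 genes higher and 4 to 2748 lower; the lowest counts were without a Ctrl library, where the spread comes from the WC1 pair alone. Relative to the adipocyte markers, a pseudocount of 5 put Apln at −0.0029 and Nrg4 at −0.060. The Lep to Adipoq log2 ratio difference stayed between 0.106 and 0.116. Equal replicate numbers are not said to pair libraries, and the replicate differences of Ctrl and WC1 correlated with r = 0.19 across 14106 genes, which are not independent. With a replicate block, 9 adipokine, 29 axis and 1769 higher and 1497 lower genes were called. With 2 libraries a group, the spread between libraries rather than depth limits precision.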

Other observations

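Several partner genes were split by library number rather than by group, among them C5ar1 and Adam17. C5ar1, the receptor of the complement fragment C5a, had 330 and 44.3 CPM in Ctrl 1 and Ctrl 2 and 214 and 17.0 CPM in WC1 1 and WC1 2. Adam17, a sheddase that releases EGF-like ligands, had 141 and 53.9 CPM in Ctrl and 122 and 49.2 CPM in WC1. In both genes the library numbered 1 was higher in both groups, the reverse of 8 of the 9 adipokine genes, and both genes were picked after their values were seen. Of the complement genes, C3, the substrate from which the alternative pathway is built, had 2342 and 2033 CPM in Ctrl and 1735 and 2326 CPM in WC1, so that the groups overlapped while Cfd did not.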
